A study of Mus musculus with 12 samples.

Results

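The ribosome biogenesis and nucleolar genes described here are 44 genes, chosen by symbol from 23284 gene symbols in the deposited files, whose products transcribe ribosomal RNA, process and modify it, or assemble ribosomal subunits in the nucleolus. RNA polymerase I makes a long precursor RNA there, small nucleolar ribonucleoproteins (snoRNPs) modify it, and large sets of proteins cut it and fold it into the precursors of the small and the large subunit. The transcription factor Myc is known to raise the transcription of many of these genes, and in T cell leukemia Myc is itself a known target of the receptor Notch1. Zmiz1 is a coactivator related to the PIAS family that is known to bind Notch1.

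RNA was sequenced from 12 libraries of 8946, a mouse T cell leukemia line, in 4 groups of 3. All cells carried 2 retroviral vectors, one marked by GFP and one by the receptor NGFR, and were sorted for both markers. Combined libraries carried the Notch1 mutant L1601P with GFP and Zmiz1 with NGFR. The libraries titled Notch1 carried the mutant and the empty NGFR vector, those titled Zmiz1 carried Zmiz1 and the empty GFP vector MigR1, and control libraries carried both empty vectors. The cell line labels of the 2 single-vector groups name these vectors the other way round. Zmiz1 averaged 49.3 ± 1.66 FPKM in combined, 0.212 ± 0.0153 in Notch1-titled, 70.8 ± 3.39 in Zmiz1-titled and 0.176 ± 0.00489 in control libraries (all errors beside means are SD, with n = 3 in each group). Notch1 averaged 35.6 ± 1.93, 32.1 ± 10.1, 2.102 ± 0.218 and 1.89 ± 0.0863 FPKM in the same order. The vector genes thus went with the titles and column headers and against the cell line labels, and the 2 groups are called Notch1-titled and Zmiz1-titled. FPKM are fragments per kilobase of transcript, scaled to the mapped fragments of the library, and gene levels are compared on this per-length scale. The labels give neither the extent of vector expression per cell nor whether the 3 replicates came from separate transductions, so a p covers only the variation among the libraries at hand, which may be technical. From outside the labels, the line is known to come from a mouse with a doxycycline-repressible human MYC transgene, so the Myc values below are those of the mouse gene, and transgene RNA was not analysed here.

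Summed FPKM ran from 549098 to 606908 per library, with values above 0 for 14233 to 14554 genes. The files give no read totals, and ratios of low values to those of control replicate 1 showed no common step for most libraries. The exceptions were replicate 1 of the Zmiz1-titled, Notch1-titled and combined groups. In these 13.9%, 4.15% and 3.77% of genes shared the most common ratio, against 0.864% to 1.18% in the other libraries. The number of reads behind a value is thus not known. The 8 T cell markers (among them Cd3e and Lck) summed to 2909 to 3069 FPKM in combined, 3107 to 3582 in Notch1-titled, 2507 to 2790 in Zmiz1-titled and 2999 to 3121 in control libraries. All 5 B cell, all 6 erythroid and all 5 fibroblast markers stayed under 1 FPKM in every library. Of 6 myeloid markers, 5 stayed under 1 FPKM, and the list summed to 59.2 to 61.6 FPKM in combined, 51.1 to 58.3 in Notch1-titled, 91.5 to 100.3 in Zmiz1-titled and 97.8 to 101.9 in control libraries through Itgam, an integrin chain. The part of Itgam in the results below was not tested. Zmiz1-titled replicate 2 correlated least with the rest (a mean r of 0.942, where the other 11 had 0.949 to 0.957), and results that rest on it are given with and without it. Notch1-titled replicate 3 was next, at 0.949, and had the highest summed FPKM. Its Notch1 level was 22.1 FPKM, against 32.04 and 42.2 FPKM in replicates 1 and 2 of its group. In bulk RNA, fewer cells expressing a gene and less RNA per cell cannot be told apart.

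All 44 genes were expressed in every library and passed the filter of a mean of 1 FPKM, as did 10152 genes in all. Their 12-library means ran from 2.12 FPKM for Rrp1b to 269 FPKM for Npm1. Together they summed to 1226, 1299 and 1318 FPKM in combined libraries and 1155, 1217 and 1289 FPKM in Notch1-titled libraries. The sums were 1137, 1258 and 1177 FPKM in Zmiz1-titled and 1129, 1186 and 1201 FPKM in control libraries. The combined libraries were highest on average, but their range overlapped those of the Notch1-titled and Zmiz1-titled libraries. As shares of the summed FPKM of each library, combined libraries overlapped the control too. The shares were 0.213%, 0.222% and 0.232% in combined and 0.205%, 0.209% and 0.218% in control libraries. The group mean of a gene was highest in combined libraries for 35 of the 44 genes, in Notch1-titled for 6, in Zmiz1-titled for 1 and in control for 2, while 21.7% of all genes tested were highest in combined libraries. It was lowest in control libraries for 21 genes and in Zmiz1-titled libraries for 14, and the shares of all genes lowest there were not computed.

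**Figure D1:**
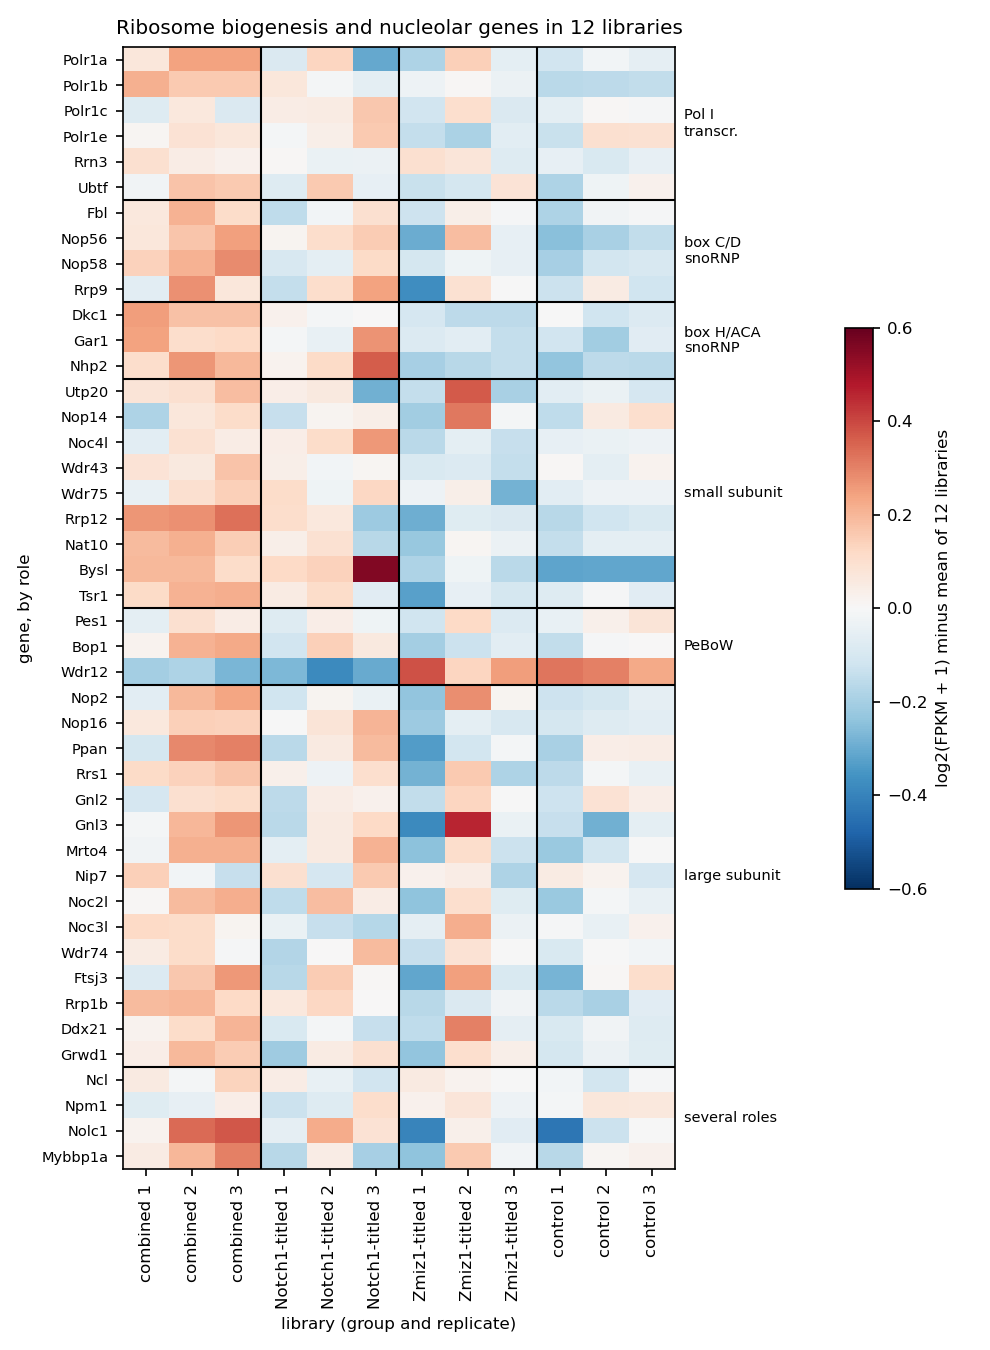
Level of each of the 44 genes (rows, by role) in each of 12 libraries (columns, by group and replicate), as log2(FPKM + 1) minus the gene's mean over the 12 libraries. Most rows are red in the 3 combined libraries, Wdr12 is blue in all 6 libraries that carry the Notch1 mutant, and Zmiz1-titled replicate 2 stands apart from the other libraries of its group for Gnl3, Utp20 and Nop14.

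Myc, the transcription factor, was above 1 FPKM in the combined libraries alone. Myc had 5.91, 6.76 and 6.87 FPKM in combined and 0.721, 0.811 and 0.887 FPKM in Notch1-titled libraries. It had 0.285, 0.6104 and 0.499 FPKM in Zmiz1-titled and 0.0828, 0.106 and 0.0274 FPKM in control libraries. No library of one group overlapped those of another, and the order was combined, Notch1-titled, Zmiz1-titled, control. Myc rose in combined libraries against the control (log2 fold change 2.81 ± 0.10 (SE), limma adjusted p = 7.28e-08), and the ratio of means was 90.5. The ratio of means was 14.002 in combined against Zmiz1-titled libraries (log2 fold change 2.36 ± 0.10 (SE), limma adjusted p = 6.48e-07). It was 8.07 in combined against Notch1-titled libraries (log2 fold change 2.05 ± 0.10 (SE), limma adjusted p = 1.50e-06). Notch1-titled libraries were above the control (log2 fold change 0.75 ± 0.10 (SE), limma adjusted p = 0.00141). Zmiz1-titled libraries against the control missed the threshold (log2 fold change 0.44 ± 0.10 (SE), limma adjusted p = 0.0511). With single libraries left out the limma adjusted p ran from 0.0191 to 0.206. It was under the threshold only without Zmiz1-titled replicate 1. Because Myc lay near or under 1 FPKM in 3 groups, fold changes on this scale understate the ratios of means. Mycn, a relative of Myc, was listed at 0 in all 12 libraries.

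Levels of the 44 genes spanned a narrower range than Myc. The median over the genes of log2(FPKM + 1), relative to each gene's 12-library mean, was 0.05, 0.16 and 0.15 in combined libraries and -0.04, 0.05 and 0.05 in Notch1-titled libraries. It was -0.17, 0.06 and -0.06 in Zmiz1-titled and -0.13, -0.03 and -0.04 in control libraries. The 3 combined libraries lay above all 3 control libraries, and replicate 1 was the lowest library in each of the 4 groups. The labels name no batch that goes with replicate 1, and its part in the results was not tested beyond the replicate block in the closing section. The group means of 15 of the 44 genes (34.1%) followed the order of Myc, as did 7.52% of all genes tested. They were Polr1b, Ubtf, Fbl, Nop56, Nop58, Gar1, Nhp2, Nat10, Mrto4, Noc2l, Wdr74, Ftsj3, Rrp1b, Grwd1 and Nolc1. The order separates Zmiz1-titled from control libraries, whose means differed little, and leaving out control replicate 1 gave a count of 6 (6.91% of all genes), and leaving out Zmiz1-titled replicate 2 gave 8 (8.4% of all genes). Every combined library was above the other 9 libraries for 7 of the 44 genes (15.9%) and for 1.6% of all genes tested: Polr1b, Nop58, Dkc1, Wdr43, Rrp12, Nat10 and Tsr1.

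**Figure D2:**
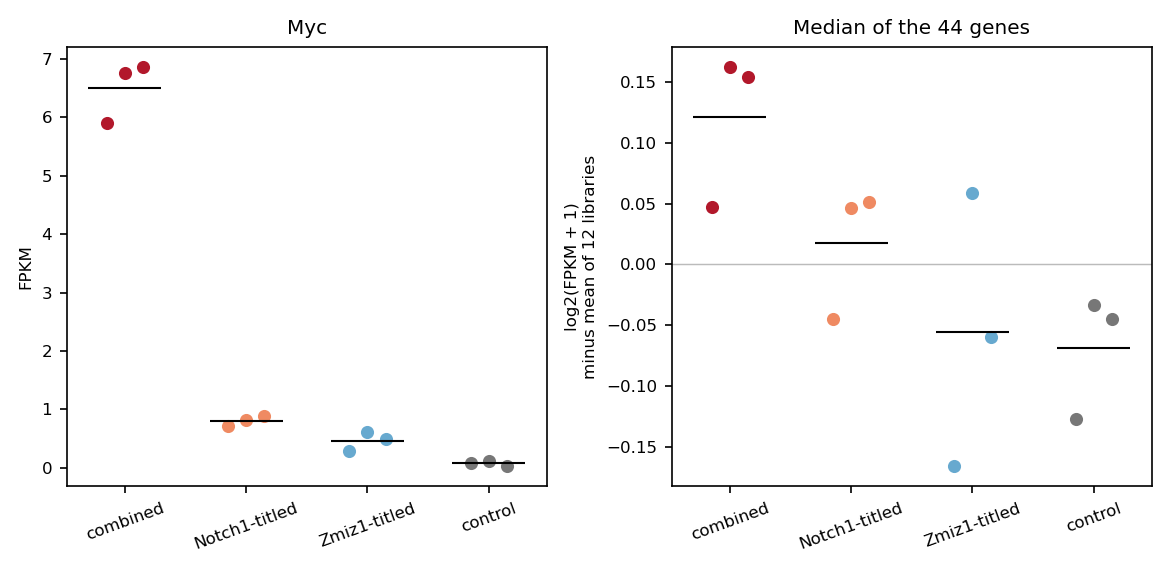
Left, Myc in FPKM per library (points) and group mean (line); right, the median of the 44 genes per library as log2(FPKM + 1) minus the 12-library mean. Myc separates all 4 groups, while on the right the combined libraries lie above the control libraries and Zmiz1-titled libraries span -0.17 to 0.06.

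Myc binds the palindromic motif CACGTG, the E-box, and the promoters of the 44 genes were searched for it. RefSeq (GRCm38.p6) gave a window of 300 bases, 250 before and 50 after the gene's start, for 38 of the 44 genes. The motif, which reads the same on both strands, was in 8 of the 38 genes (21.1%), Rrn3, Utp20, Wdr43, Tsr1, Pes1, Nop2, Grwd1 and Mybbp1a. It was in 12.4% of 7171 genes tested with a window, in 19.3% of the other biogenesis factors, in 10.5% of the ribosomal protein genes and in 7.15% of all windows. In 6 of the 8 it began within the first 50 transcribed bases. A match is a description of these letters, and no binding was measured. Windows are shown 5′ to 3′ on the gene's strand for Tsr1 and Wdr43, which were above the other 9 libraries in all combined libraries and hold a match, for Rrn3, which holds a pair of matches and was called in no pairwise comparison, for Nop58 and Dkc1, which were also above the other 9 and hold none, and for Wdr12, which fell (the first of its 3 windows). Capitals mark the motif.
Tsr1, chr11:74897830-74898129, plus strand: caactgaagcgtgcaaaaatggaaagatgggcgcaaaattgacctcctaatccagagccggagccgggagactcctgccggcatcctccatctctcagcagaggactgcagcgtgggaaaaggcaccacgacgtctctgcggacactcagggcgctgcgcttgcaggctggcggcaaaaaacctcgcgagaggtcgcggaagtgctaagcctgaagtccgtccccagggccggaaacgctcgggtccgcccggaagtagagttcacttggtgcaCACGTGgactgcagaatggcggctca
Wdr43, chr17:71615965-71616264, plus strand: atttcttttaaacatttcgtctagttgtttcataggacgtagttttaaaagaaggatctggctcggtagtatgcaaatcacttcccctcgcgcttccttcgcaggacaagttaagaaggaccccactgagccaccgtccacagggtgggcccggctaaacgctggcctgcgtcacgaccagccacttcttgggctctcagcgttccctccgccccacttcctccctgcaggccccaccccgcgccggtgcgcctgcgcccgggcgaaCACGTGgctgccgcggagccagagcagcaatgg
Rrn3, chr16:13780449-13780748, plus strand: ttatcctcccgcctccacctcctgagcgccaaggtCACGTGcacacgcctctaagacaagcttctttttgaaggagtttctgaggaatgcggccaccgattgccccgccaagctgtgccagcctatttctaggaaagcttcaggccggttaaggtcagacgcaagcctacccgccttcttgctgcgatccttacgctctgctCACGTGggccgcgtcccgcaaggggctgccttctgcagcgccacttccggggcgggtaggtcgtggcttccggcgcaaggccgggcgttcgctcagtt
Nop58, chr1:59684756-59685055, plus strand: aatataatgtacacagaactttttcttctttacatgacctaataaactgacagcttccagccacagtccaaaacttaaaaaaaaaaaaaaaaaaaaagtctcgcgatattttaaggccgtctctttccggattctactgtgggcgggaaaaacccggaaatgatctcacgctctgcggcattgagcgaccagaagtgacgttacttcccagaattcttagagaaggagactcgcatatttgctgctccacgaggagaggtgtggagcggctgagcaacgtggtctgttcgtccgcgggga
Dkc1, chrX:75095604-75095903, plus strand: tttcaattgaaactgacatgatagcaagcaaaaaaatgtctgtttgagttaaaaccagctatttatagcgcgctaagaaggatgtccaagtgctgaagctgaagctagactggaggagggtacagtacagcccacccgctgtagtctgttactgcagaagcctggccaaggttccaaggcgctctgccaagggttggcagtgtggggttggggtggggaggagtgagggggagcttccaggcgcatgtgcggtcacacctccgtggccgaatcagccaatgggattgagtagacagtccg
Wdr12, chr1:60098451-60098750, minus strand: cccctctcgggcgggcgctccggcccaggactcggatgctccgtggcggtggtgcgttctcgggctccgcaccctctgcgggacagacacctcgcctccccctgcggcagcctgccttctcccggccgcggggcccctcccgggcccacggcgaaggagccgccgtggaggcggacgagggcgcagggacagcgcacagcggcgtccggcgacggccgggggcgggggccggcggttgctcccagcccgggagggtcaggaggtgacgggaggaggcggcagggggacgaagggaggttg
The motif began at base 25 after the start of Tsr1 and at base 18 after that of Wdr43, and 215 and 48 bases before that of Rrn3. Of the 7 genes that rose in combined against control libraries, 6 had a window (Polr1b, Nop58, Dkc1, Nhp2, Bysl and Rrp1b) and 0 held the motif in it.

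Combined against control libraries asked what both vectors changed together. Most of the 44 genes were slightly higher, with a median log2 fold change of 0.20 against 0.02 over all genes tested, and 40 of 44 fold changes were positive against 56.5% of all genes. In limma, 7 of the 44 genes rose (15.9%), where 3.97% of all genes tested rose, and 1 fell (2.27%), where 2.49% of all genes fell. Over all genes 403 rose and 253 fell, against 340 and 306 after median ratio scaling and 332 and 356 after quantile normalization. The genes that rose were Polr1b, Nop58, Dkc1, Nhp2, Rrp12, Bysl and Rrp1b, and the gene that fell was Wdr12. All 3 combined libraries were above all 3 control libraries for 25 of the 44 genes (56.8%), against 20.1% of all genes tested. Fold changes of the genes that rose were between 0.27 and 0.48. Against a minimum fold of 1.2 none of the 44 genes was called, where 1.21% of all genes were. The count of 8 called genes was 5, 4 and 3 without combined replicates 1, 2 and 3, and 3, 3 and 5 without control replicates 1, 2 and 3. Calls over all genes fell too, from 6.46% to 3.99%, 3.44% and 3.5% without these combined replicates. Without these control replicates they were 3.73%, 3.34% and 3.44%. The 3 genes called without combined replicate 3 included Wdr12 and Polr1b, which were called without any 1 of the 12 libraries.

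**Figure D3:**
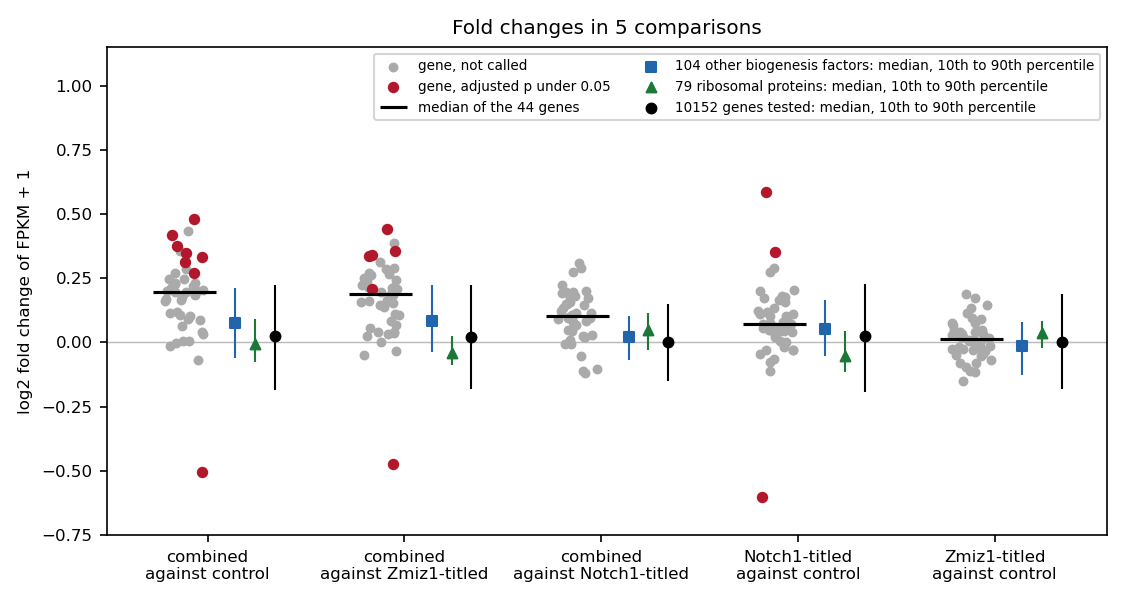
Log2 fold change of FPKM + 1 for each of the 44 genes (points, red where the limma adjusted p is under 0.05) in 5 comparisons, with the median of the 44 genes (bar) and the median and 10th to 90th percentile of 3 wider sets. The median is 0.20 in combined against control and 0.01 in Zmiz1-titled against control libraries, and the low red point is Wdr12.

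Among genes of ribosomal RNA transcription, Polr1b, the second largest subunit of RNA polymerase I (chr2:129100995-129126594 on GRCm38, the span of the gene in the GENCODE annotation, as for all genes below), was highest in combined libraries. Polr1b had 3.43, 3.26 and 3.26 FPKM in combined and 3.01, 2.79 and 2.67 FPKM in Notch1-titled libraries. It had 2.73, 2.84 and 2.73 FPKM in Zmiz1-titled and 2.41, 2.42 and 2.45 FPKM in control libraries. All 3 combined libraries exceeded the other 9. It rose in combined libraries against the control (log2 fold change 0.33 ± 0.06 (SE), limma adjusted p = 0.0077). Polr1a, the largest subunit, was less steady. Polr1a had 4.36, 5.04 and 5.05 FPKM in combined and 3.81, 4.59 and 3.13 FPKM in Notch1-titled libraries. It had 3.498, 4.65 and 3.92 FPKM in Zmiz1-titled and 3.72, 4.06 and 3.92 FPKM in control libraries. Combined libraries lay above the control, but Notch1-titled replicate 3 was the lowest of all 12, and Polr1a was not called against the control (adjusted p = 0.285). Ubtf had 68.1, 77.96 and 77.3 FPKM in combined libraries and 65.4, 77.3 and 66.8 FPKM in Notch1-titled libraries, against 62.98, 64.3 and 73.4 FPKM in Zmiz1-titled and 60.8, 67.9 and 70.5 FPKM in control libraries. Ubtf, which bends the ribosomal DNA promoter for the polymerase, overlapped between all groups. Polr1c had 18.4, 20.4 and 18.3 FPKM in combined libraries and 20.1, 20.1 and 21.9 FPKM in Notch1-titled libraries, against 17.9, 20.97 and 18.3 FPKM in Zmiz1-titled and 18.7, 19.6 and 19.4 FPKM in control libraries. Polr1c, a subunit shared with RNA polymerase III, was higher in all 3 Notch1-titled libraries than in the 3 control libraries, the other pairs of groups overlapped, and it was not called. Polr1e, another subunit, and Rrn3, which recruits the polymerase to the promoter, were called in none of the 5 pairwise comparisons. Of the 6 genes of this role, 1 rose and 0 fell in combined against control libraries.

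Of 4 genes of the box C/D snoRNP, which methylates ribosomal RNA, 1 rose in combined against control libraries, Nop58, a core protein of the particle (chr1:59684971-59719044). Nop58 had 56.2, 58.9 and 62.2 FPKM in combined libraries and 47.5, 48.8 and 55.2 FPKM in Notch1-titled libraries, against 47.3, 49.9 and 49.1 FPKM in Zmiz1-titled and 44.2, 47.04 and 47.5 FPKM in control libraries. It rose against the control (log2 fold change 0.35 ± 0.067 (SE), limma adjusted p = 0.0109), and missed the threshold at 0.0568 without combined replicate 3 and at 0.053 without control replicate 1. Nop56 had 61.2, 65.6 and 69.4 FPKM in combined libraries and 59.05, 62.9 and 65.01 FPKM in Notch1-titled libraries, against 47.4, 66.5 and 56.5 FPKM in Zmiz1-titled and 48.9, 50.9 and 52.7 FPKM in control libraries. Nop56, its partner in the particle, was above all 3 control libraries in all 3 combined and all 3 Notch1-titled libraries and was not called (adjusted p = 0.0769). Its adjusted p was 0.0158 to 0.245 with single libraries left out, and it was called without Zmiz1-titled replicate 1 or 2. Fbl had 70.2, 77.8 and 72.4 FPKM in combined libraries and 60.2, 66.4 and 71.8 FPKM in Notch1-titled libraries, against 61.5, 68.7 and 66.8 FPKM in Zmiz1-titled and 58.9, 66.02 and 66.8 FPKM in control libraries. Fbl, fibrillarin, the methyltransferase, was above the control in all 3 combined libraries without a call (adjusted p = 0.202). Rrp9 had 13.1, 16.8 and 14.4 FPKM in combined libraries and 12.3, 14.8 and 16.4 FPKM in Notch1-titled libraries, against 10.4, 14.7 and 13.7 FPKM in Zmiz1-titled and 12.4, 14.2 and 12.5 FPKM in control libraries. Rrp9, which belongs to a particle of the same class that guides early cleavage, overlapped between the groups.

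Of 3 genes of the box H/ACA snoRNP, which converts uridine to pseudouridine, 2 rose in combined against control libraries. Dkc1 had 21.7, 20.6 and 20.6 FPKM in combined libraries and 18.4, 17.95 and 18.1 FPKM in Notch1-titled libraries, against 16.8, 16.2 and 16.2 FPKM in Zmiz1-titled and 18.1, 16.6 and 17.03 FPKM in control libraries. Dkc1, dyskerin, the pseudouridine synthase (chrX:75095854-75109777), was above the other 9 libraries in all 3 combined libraries. It rose against the control (log2 fold change 0.27 ± 0.049 (SE), limma adjusted p = 0.0085), with an adjusted p of 0.0529 without control replicate 2. Nhp2 had 35.1, 39.3 and 37.4 FPKM in combined libraries and 33.1, 35.4 and 42.1 FPKM in Notch1-titled libraries, against 28.2, 28.9 and 29.4 FPKM in Zmiz1-titled and 27.5, 29.1 and 29.001 FPKM in control libraries. Nhp2, a core protein of the particle (chr11:51619735-51623714), was higher in all 6 libraries carrying the Notch1 mutant than in the other 6. It rose in combined against control libraries (log2 fold change 0.37 ± 0.081 (SE), limma adjusted p = 0.0207). The adjusted p was 0.0651 to 0.0846 without any 1 control library and 0.098 and 0.0778 without combined replicates 2 and 3. Gar1 had 18.5, 16.7 and 16.9 FPKM in combined libraries and 15.3, 14.97 and 18.8 FPKM in Notch1-titled libraries, against 14.5, 14.8 and 13.9 FPKM in Zmiz1-titled and 14.2, 13.2 and 14.7 FPKM in control libraries. Gar1, another core protein, was also higher in all 6 libraries with the mutant and was not called (adjusted p = 0.0742). With single libraries left out its limma adjusted p ran from 0.0151 to 0.258, and it was called only without Notch1-titled replicate 3.

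Of 9 genes of the small subunit, 2 rose in combined against control libraries. Rrp12 had 3.45, 3.48 and 3.66 FPKM in combined libraries and 2.98, 2.87 and 2.19 FPKM in Notch1-titled libraries, against 2.02, 2.53 and 2.49 FPKM in Zmiz1-titled and 2.297, 2.41 and 2.48 FPKM in control libraries. Rrp12, a repeat protein that helps export and mature subunit precursors (chr19:41862851-41896173), was above the other 9 libraries in every combined library (log2 fold change 0.42 ± 0.095 (SE), limma adjusted p = 0.0264). Its adjusted p was 0.0709 to 0.1 without any 1 combined or control library. Bysl had 69.8, 69.8 and 65.8 FPKM in combined libraries and 66.3, 67.1 and 89.9 FPKM in Notch1-titled libraries, against 53.5, 59.8 and 54.3 FPKM in Zmiz1-titled and 48.7, 48.9 and 48.9 FPKM in control libraries. Bysl, bystin, needed for late processing of the small subunit (chr17:47599331-47611492), was higher in all 6 libraries with the Notch1 mutant, and Notch1-titled replicate 3 was the highest. It rose in combined libraries against the control (log2 fold change 0.48 ± 0.10 (SE), limma adjusted p = 0.0185), with 0.0525 to 0.0777 without any 1 combined or control library. Bysl shares 361 exonic bases (9.37% of its exons) with Ccnd3, cyclin D3, which lies on the opposite strand and averaged 748 FPKM in combined, 774 in Notch1-titled, 611 in Zmiz1-titled and 527 in control libraries. The libraries keep no strand, so reads from the 2 genes cannot be told apart there, and the level of Bysl is uncertain.

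Nat10, an RNA acetyltransferase of the nucleolus, was higher in combined libraries without a call. Nat10 had 4.85, 4.95 and 4.68 FPKM in combined libraries and 4.25, 4.46 and 3.57 FPKM in Notch1-titled libraries, against 3.38, 4.18 and 4.01 FPKM in Zmiz1-titled and 3.64, 3.92 and 3.92 FPKM in control libraries. All combined libraries exceeded the other 9 (adjusted p = 0.0973 against the control). With single libraries left out the limma adjusted p of Nat10 ran from 0.0496 to 0.268, and it was called only without Notch1-titled replicate 3. Nop14 had 10.03, 12.2 and 12.5 FPKM in combined libraries and 10.4, 11.7 and 11.8 FPKM in Notch1-titled libraries, against 9.87, 14.6 and 11.4 FPKM in Zmiz1-titled and 10.3, 12.03 and 12.4 FPKM in control libraries. Nop14, a processome component, overlapped between the groups, with Zmiz1-titled replicate 2 the highest. Tsr1, a late assembly factor that resembles a GTPase, and Wdr43, a processome protein, are described with combined against Zmiz1-titled libraries. Utp20, Noc4l and Wdr75, the other members of the small subunit group, were called in none of the 5 pairwise comparisons.

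Wdr12 was the 1 gene of the 44 that fell. With Pes1 and Bop1 it forms the PeBoW complex of the large subunit (chr1:60069785-60098645). Wdr12 had 38.6, 39.2 and 36.8 FPKM in combined libraries and 36.9, 34.1 and 36.1 FPKM in Notch1-titled libraries, against 58.6, 48.96 and 53.3 FPKM in Zmiz1-titled and 56.2, 55.3 and 52.5 FPKM in control libraries. All 6 libraries with the Notch1 mutant (34.1 to 39.2 FPKM) lay below the other 6 (49.0 to 58.6 FPKM), with no overlap. Wdr12 was the 1 gene of the 44 (2.27%) with this separation downward, against 2.41% of all genes tested. Upward, 5 of the 44 genes (11.4%) had all 6 libraries with the mutant above the other 6, against 4.82% of all genes tested, and these were Gar1, Nhp2, Bysl, Nop16 and Rrp1b. Wdr12 fell in combined libraries against the control (log2 fold change -0.50 ± 0.068 (SE), limma adjusted p = 0.0012). Pes1 had 26.999, 30.3 and 29.2 FPKM in combined libraries and 26.7, 28.98 and 27.7 FPKM in Notch1-titled libraries, against 25.8, 30.8 and 26.6 FPKM in Zmiz1-titled and 27.3, 28.8 and 29.8 FPKM in control libraries. Pes1 overlapped between all groups (adjusted p = 0.982). Bop1 had 24.2, 27.7 and 28.1 FPKM in combined libraries and 21.96, 26.4 and 24.9 FPKM in Notch1-titled libraries, against 20.6, 21.7 and 22.8 FPKM in Zmiz1-titled and 21.5, 23.8 and 23.9 FPKM in control libraries. Bop1 was above the control in all 3 combined libraries and was not called (adjusted p = 0.214). Carf, on the strand opposite Wdr12 with 61 shared exonic bases, averaged 4.05 FPKM in combined, 3.91 in Notch1-titled, 5.47 in Zmiz1-titled and 5.18 in control libraries, and its part in the values of Wdr12 was not tested.

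Of 15 further genes of the large subunit, all 15 fold changes were positive in combined against control libraries, with a median of 0.20, and 1 rose. Rrp1b had 2.55, 2.57 and 2.38 FPKM in combined libraries and 2.25, 2.39 and 2.12 FPKM in Notch1-titled libraries, against 1.77, 1.93 and 2.06 FPKM in Zmiz1-titled and 1.78, 1.72 and 1.97 FPKM in control libraries. Rrp1b, a nucleolar protein bound to late precursors (chr17:32036100-32062865), was higher in all 6 libraries with the mutant, at the lowest level of the 44 genes. It rose against the control (log2 fold change 0.31 ± 0.072 (SE), limma adjusted p = 0.0276), with 0.0544 to 0.113 without any 1 combined library or without control replicate 1 or 2. Gnl3 had 7.63, 8.999 and 9.46 FPKM in combined libraries and 6.79, 8.03 and 8.46 FPKM in Notch1-titled libraries, against 5.69, 10.97 and 7.46 FPKM in Zmiz1-titled and 6.905, 6.13 and 7.36 FPKM in control libraries. Gnl3, nucleostemin, a nucleolar GTPase, spanned its whole range within the Zmiz1-titled group. Mrto4 had 25.1, 29.8 and 29.8 FPKM in combined libraries and 24.5, 26.5 and 29.7 FPKM in Notch1-titled libraries, against 21.4, 27.6 and 23.3 FPKM in Zmiz1-titled and 21.8, 23.6 and 25.6 FPKM in control libraries. Mrto4, a relative of a ribosomal stalk protein, was highest in combined replicates 2 and 3 and was not called (adjusted p = 0.252). Nip7 had 15.7, 14.005 and 12.8 FPKM in combined libraries and 15.2, 13.1 and 15.9 FPKM in Notch1-titled libraries, against 14.5, 14.7 and 12.3 FPKM in Zmiz1-titled and 14.7, 14.4 and 13.2 FPKM in control libraries. Nip7, a factor of early assembly, showed no separation. The other members were not called in any of the 5 pairwise comparisons: Nop2, Nop16, Ppan, Rrs1, Gnl2, Noc2l, Noc3l, Wdr74, Ftsj3, Ddx21 and Grwd1.

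None of the 4 nucleolar proteins of several roles was called in limma in combined against control libraries, and 1 of 4, Nolc1, had an unadjusted p under 0.05. Nolc1 had 18.9, 23.9 and 24.5 FPKM in combined libraries and 17.9, 21.9 and 19.9 FPKM in Notch1-titled libraries, against 13.9, 19.1 and 17.8 FPKM in Zmiz1-titled and 13.6, 16.9 and 18.6 FPKM in control libraries. Nolc1, a chaperone of snoRNPs, was lowest in replicate 1 of the combined, Notch1-titled, Zmiz1-titled and control groups alike (adjusted p = 0.125 in combined against control). Mybbp1a had 19.3, 21.6 and 23.2 FPKM in combined libraries and 16.5, 19.3 and 16.1 FPKM in Notch1-titled libraries, against 15.6, 20.9 and 18.4 FPKM in Zmiz1-titled and 16.5, 18.8 and 19.002 FPKM in control libraries. Mybbp1a, a regulator of ribosomal RNA transcription, was highest in combined replicates 2 and 3 (adjusted p = 0.307). Ncl had 98.8, 94.2 and 104 FPKM in combined libraries and 98.04, 92.2 and 87.7 FPKM in Notch1-titled libraries, against 98.7, 96.4 and 94.8 FPKM in Zmiz1-titled and 94.02, 87.9 and 94.7 FPKM in control libraries. Ncl, nucleolin, was higher in all 3 Zmiz1-titled than in the 3 control libraries, while combined libraries overlapped the control (adjusted p = 0.405 in combined against control). Npm1 had 256, 259.8 and 276 FPKM in combined libraries and 246, 254 and 289 FPKM in Notch1-titled libraries, against 273, 283 and 263 FPKM in Zmiz1-titled and 267, 282 and 281 FPKM in control libraries. Npm1, nucleophosmin, the most abundant of the 44 genes, showed no separation of the groups (adjusted p = 0.68). Npm1 has processed pseudogenes in mouse, and how the authors' counting split such reads is not given in the sources used here.

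**Figure D4:**
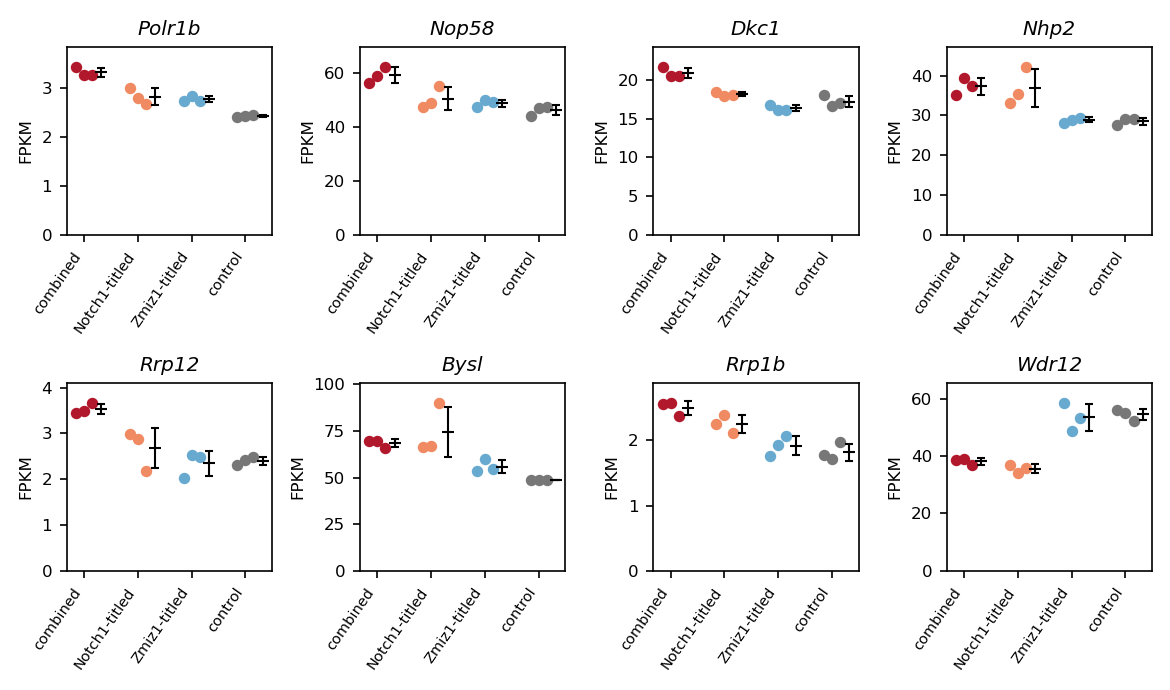
FPKM per library (points) with mean ± SD (n = 3) for the 8 genes called in combined against control libraries, each on an axis from 0. The combined libraries lie above all 3 control libraries for the first 7 genes and below them for Wdr12, where Notch1-titled libraries are low as well.

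Combined and Zmiz1-titled libraries both received Zmiz1 and differ in the Notch1 mutant. Zmiz1 itself was lower in combined libraries (49.3 against 70.8 FPKM, log2 fold change -0.51, limma adjusted p = 3.12e-04). The part of this difference in the results was not tested. The median log2 fold change of the 44 genes was 0.19, against 0.02 over all genes tested, and it was 0.12 without Zmiz1-titled replicate 1 and 0.27 without Zmiz1-titled replicate 2. In limma 5 genes rose (11.4%), where 2.67% of all genes tested rose, and 1 fell (2.27%), where 1.19% of all genes fell. Over all genes 271 rose and 121 fell, against 228 and 159 after median ratio scaling. Rrp12 rose (log2 fold change 0.44 ± 0.095 (SE), limma adjusted p = 0.029), as did Nhp2 (log2 fold change 0.36 ± 0.081 (SE), limma adjusted p = 0.0361) and Dkc1 (log2 fold change 0.34 ± 0.049 (SE), limma adjusted p = 0.00317). Tsr1 had 7.92, 8.53 and 8.58 FPKM in combined libraries and 7.52, 7.88 and 6.87 FPKM in Notch1-titled libraries, against 5.57, 6.97 and 6.65 FPKM in Zmiz1-titled and 6.82, 7.205 and 6.86 FPKM in control libraries. Tsr1 (chr11:74898071-74909342) was above the other 9 libraries in all combined libraries, by a narrow margin over Notch1-titled replicate 2, and rose (log2 fold change 0.34 ± 0.079 (SE), limma adjusted p = 0.0386). It shares 1240 exonic bases (32.3% of its exons) with Srr, serine racemase, on the opposite strand, which averaged 8.88 FPKM in combined, 8.62 in Notch1-titled, 7.87 in Zmiz1-titled and 8.61 in control libraries, so its level is uncertain. Wdr43 had 15.8, 15.6 and 16.95 FPKM in combined libraries and 15.3, 14.8 and 15.03 FPKM in Notch1-titled libraries, against 13.96, 14.1 and 13.4 FPKM in Zmiz1-titled and 15.02, 14.3 and 15.2 FPKM in control libraries. Wdr43 (chr17:71615895-71659031) rose as well (log2 fold change 0.21 ± 0.051 (SE), limma adjusted p = 0.0478). Wdr12 fell (log2 fold change -0.48 ± 0.068 (SE), limma adjusted p = 0.00277).

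All 3 combined libraries exceeded all 3 Zmiz1-titled libraries for 15 of the 44 genes (34.1%), against 13.5% of all genes tested. Without Zmiz1-titled replicate 2 the count was 30, against 19.7% of all genes. The 6 called genes were 2 without any 1 combined library, 3, 2 and 2 without control replicates 1, 2 and 3, 3 and 10 without Notch1-titled replicates 2 and 3, and 2 and 3 without Zmiz1-titled replicates 1 and 3. Calls over all genes moved as well, from 3.86% to 1.81% to 2.46% without 1 combined library and 2.76% to 3.18% without 1 control library. They were 3.37% and 4.97% without Notch1-titled replicates 2 and 3, and 2.95% and 3.47% without Zmiz1-titled replicates 1 and 3. Dkc1 and Wdr12 were called without any 1 of the 12 libraries. Nhp2 lost its call when any 1 library other than Notch1-titled replicates 1 and 3 was left out (adjusted p 0.0522 to 0.166). Tsr1 lost it when any 1 library other than Notch1-titled replicate 3 and Zmiz1-titled replicate 2 was left out (0.0505 to 0.161), and the same libraries ended the call of Wdr43 (0.0632 to 0.202). Rrp12 lost it without any 1 combined library, control replicate 2 or 3, or Zmiz1-titled replicate 1 (0.0506 to 0.116). Wdr43 also lost its call with other scalings, pseudocounts and variance priors (0.0503 to 0.0989), and Tsr1 with median ratio scaling (0.0525) or no filter (0.066). With only the 6 libraries compared in the fit none of the 44 genes was called, where 1.53% of all genes were. At an unadjusted p under 0.05 in the fit of all 12 libraries, 17 of the 44 genes (38.6%) were higher and 1 (2.27%) was lower, against 10.2% and 5.59% of all genes.

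Notch1-titled against control libraries asked what the Notch1 mutant changed alone. The median log2 fold change of the 44 genes was 0.07, against 0.02 over all genes tested. It was 0.04 after median ratio scaling, 0.05 without control replicate 1 or Notch1-titled replicate 2, and 0.11 without Notch1-titled replicate 1. In limma 2 genes rose (4.55%), where 3.19% of all genes tested rose, and 1 fell (2.27%), where 2.3% of all genes fell, so these shares were near the background. Over all genes 324 rose and 233 fell, against 266 and 287 after median ratio scaling and 271 and 301 after quantile normalization. Bysl rose (log2 fold change 0.58 ± 0.10 (SE), limma adjusted p = 0.00732), with Notch1-titled replicate 3 far above the other libraries, and its adjusted p was 0.0604 with only these 6 libraries in the fit. Nhp2 rose (log2 fold change 0.35 ± 0.081 (SE), limma adjusted p = 0.0322), with 0.0946 to 0.116 when any 1 control library was left out, 0.063 when Notch1-titled replicate 2 was, 0.0547 when Notch1-titled replicate 3 was and 0.0569 when combined replicate 3 was. Wdr12 fell (log2 fold change -0.60 ± 0.068 (SE), limma adjusted p = 5.10e-04) and was called without any 1 library. Notch1-titled libraries exceeded the control without overlap for 11 genes (25%), against 15.8% of all genes tested.

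The remaining comparisons asked what Zmiz1 changed. In Zmiz1-titled against control libraries 0 of the 44 genes were called in limma, where 2.11% of all genes tested were called, and 1 gene, Polr1b, had an unadjusted p under 0.05 (log2 fold change 0.14). The median was 0.01, and 26 of 44 fold changes (59.1%) were positive, against 50.5% of all genes. Its sign was not stable. The median was -0.06 with 12 positive fold changes without Zmiz1-titled replicate 2 and 0.07 without Zmiz1-titled replicate 1. Leaving out control replicate 1 gave -0.03. It was -0.00050 with 22 positive after quantile normalization. In all 12 libraries 3 genes (6.82%) were higher without overlap, against 8.75% of all genes. In combined against Notch1-titled libraries, where Myc differed by a ratio of 8.07, 0 of the 44 genes were called in limma, where 1.51% of all genes tested were called. With the replicate block of the closing section 2 were called, Nop58 and Dkc1, where 2.56% of all genes were. The median was 0.10 against -0.00 over all genes tested, and it was 0.05 without Notch1-titled replicate 1. Of the fold changes 38 (86.4%) were positive, against 49.6% of all genes. At an unadjusted p under 0.05, 8 genes (18.2%) were higher and 0 lower, against 4.41% and 4.59% of all genes. The 8 genes were Rrp12 (0.31), Mybbp1a (0.29), Polr1a (0.27), Nop58 (0.22), Noc3l (0.20), Nat10 (0.20), Dkc1 (0.20) and Polr1b (0.18), with adjusted p from 0.104 for Dkc1 upward. Notch1-titled replicate 3 was the lowest library of its group for these genes other than Nop58 and Dkc1. Combined libraries exceeded Notch1-titled libraries without overlap for 13 genes (29.5%), against 7.6% of all genes tested.

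The interaction tests whether the joint effect of both vectors differs from the sum of the single effects. None of the 44 genes passed it in limma, where 0.069% of all genes tested did. At an unadjusted p under 0.05, 4 genes (9.09%) had a positive interaction, against 1.71% of all genes, Rrp12 (0.33), Dkc1 (0.27), Tsr1 (0.26) and Wdr43 (0.19), with adjusted p of at least 0.858. Myc passed (log2 fold change 1.61 ± 0.14 (SE), limma adjusted p = 0.0019), but not with a pseudocount of 0.1 (1.17) or 0.01 (0.38) FPKM, where the adjusted p was 1. The comparisons of the 3 vector groups with the control share the 3 control libraries.

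Other genes of the pathway were set beside these. Of 106 further ribosome biogenesis factors, 104 were tested, and 1 rose and 0 fell in limma in combined against control libraries (median 0.08). The share that rose, 0.962%, was under the 3.97% of all genes, and at an unadjusted p under 0.05 11 (10.6%) were higher and 2 (1.92%) lower, against 11.8% and 7.33% of all genes. The gene was Pa2g4, a growth regulator of the nucleolus, with 95.2 FPKM in combined and 79.9 FPKM in control libraries (log2 fold change 0.25, limma adjusted p = 0.0176). In combined against Zmiz1-titled libraries 2 rose, Pa2g4 (0.22, limma adjusted p = 0.0419) and Rcl1, a cleavage factor of the small subunit (0.51, limma adjusted p = 0.0277; 6.47 FPKM in combined and 4.30 FPKM in Zmiz1-titled libraries), and 17 (16.3%) were higher at an unadjusted p under 0.05, against 10.2% of all genes. None was called in the other comparisons in limma, where 5 (4.81%) were higher in Notch1-titled against control libraries at an unadjusted p under 0.05, against 11.8% of all genes. Of 79 ribosomal protein genes, the products that these factors assemble, 0 were called in any comparison in limma. Their median was -0.01 in combined against control libraries, with 34 fold changes positive and 45 negative. At an unadjusted p under 0.05, 2 (2.53%) were higher and 0 lower, against 11.8% and 7.33% of all genes. In the other pairwise comparisons 0 to 3 were higher and 0 to 1 lower at that p. Of the 79, 64 were negative in Notch1-titled against control and 62 in combined against Zmiz1-titled libraries. Over all genes 56.7% and 55% were positive in these comparisons. Positive ones were 64 (81%) in Zmiz1-titled against control and 59 (74.7%) in combined against Notch1-titled libraries, against 50.5% and 49.6% of all genes. The 79 genes summed to 95116, 101071 and 120412 FPKM in Notch1-titled libraries, so a shift in 1 library can move many of these signs together. Rn45s, the row of the ribosomal RNA precursor itself, averaged 1212 ± 208 FPKM in combined, 1077 ± 21.1 in Notch1-titled, 944 ± 311 in Zmiz1-titled and 1176 ± 304 in control libraries and was not called. The library kit selects messenger RNA and this gene has many copies, so these values are not a measure of what RNA polymerase I makes.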

How the data were processed

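Messenger RNA was sequenced in 12 libraries, and per the labels' protocols these were made with an unstranded messenger RNA kit from sorted cells. The deposited values are FPKM per gene, made by the authors. The submitters' processing notes name TopHat2, Bowtie2, Cufflinks and Cuffdiff with the mm10 build, and the annotation is not given in the sources used here. Groups follow the titles. FPKM were analysed as log2(FPKM + 1) with limma 3.58.1 in R 4.3.3, with a mean-variance trend, all 12 libraries in 1 fit of 4 group means, and a filter that kept 10152 of 23284 genes, those averaging 1 FPKM or more. P-values were adjusted by Benjamini and Hochberg over these genes, and a gene is called under 0.05. With 3 libraries a group, exact permutation p-values start at 0.1, so none is given. The deposited FPKM hold no read totals, and counting error is not given. The fitting step was tested on simulated data.

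The members, lists and tests were chosen with earlier results of these data known. All 44 genes may be named. Values in every library are given for Myc and, within each role, for up to 3 genes with the largest change in combined against control libraries and the uncalled gene with the smallest, and also for the other genes called against Zmiz1-titled libraries. Of the other lists, called genes with the largest change are named. Alternatives were the pseudocount, filter, scaling, samples in the fit, variance prior, a minimum fold, a replicate block and leaving out each library. Replicate numbers were not taken as pairs, because only 6 of 18 same-number pairs correlated above 0.1. Of these 6 pairs, 4 were between libraries of replicate 1, where r reached 0.27, so the pooled count hides a likeness among those libraries. Yet 9 of 12 libraries correlated best, on average, with the libraries of their own number. A replicate block raised several counts of called genes, as given below, so the counts without it depend on this choice.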

Additional observations from a re-analysis of the deposited data

Results flagged for a closer look

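On the scale of log2(FPKM + 1), the joint effect of both vectors on Myc differed from the sum of the single effects. This did not hold with smaller pseudocounts. The ratio of means against the control was 11.2 in Notch1-titled, 6.46 in Zmiz1-titled and 90.5 in combined libraries. The interaction was 1.61 on the scale of log2(FPKM + 1) (limma adjusted p = 0.0019), and it was 1.17 with a pseudocount of 0.1 FPKM and 0.38 with 0.01 FPKM, both at an adjusted p of 1. Zmiz1, a vector gene, had an interaction of -0.56 (limma adjusted p = 0.0266), with a mean of 49.3 FPKM in combined and 70.8 FPKM in Zmiz1-titled libraries. None of the 44 ribosome biogenesis and nucleolar genes passed the test of interaction.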

How the results depend on the processing

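No value changed its direction among the called genes and Myc under the alternatives run. In combined against control libraries 8 genes were called, against 5 with a filter at 5 FPKM (37 genes tested, 5.68% of all genes called). The count was 14 with only the compared groups in the fit (13.7% of all genes) and 0 against a minimum fold of 1.2 (1.21%). In combined against Zmiz1-titled libraries 6 were called, against 0 with only the compared groups (1.53% of all genes) and 0 against the minimum fold (0.739%). In Notch1-titled against control libraries 3 were called, against 1 with only the compared groups (4.18%) and 1 against the minimum fold (0.995%). With the replicate block the counts were 15 in combined against control (11.4% of all genes, against 6.46% without the block), 12 in combined against Zmiz1-titled (7.1% against 3.86%), 2 (Nop58 and Dkc1) in combined against Notch1-titled (2.56% against 1.51%) and 4 in Notch1-titled against control libraries (10.4% against 5.49%). The block thus raised calls over all genes as well. Of 12 libraries, 9 correlated best, on average, with the libraries of their own number. After quantile normalization 9 genes (20.5%) followed the order of Myc, against 5.28% of all genes, and 7 (15.9%) were higher without overlap in Notch1-titled than in control libraries, near the 11.7% of all genes. Leaving out single libraries gave 3 to 10 called genes in combined against control libraries (3.34% to 10.7% of all genes). It gave 2 to 10 in combined against Zmiz1-titled libraries (1.81% to 4.97%) and 6 to 16 genes in the order of Myc (5.72% to 8.4%). Without Zmiz1-titled replicate 2, a setting chosen after seeing the data, 30 genes were higher without overlap in combined than in Zmiz1-titled libraries, against 15 with it. Fewer libraries separate more readily, and the share over all genes was 19.7% without this library and 13.5% with it.

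Myc in Zmiz1-titled against control libraries (0.44, limma adjusted p = 0.0511) passed the threshold at 0.45 after median ratio scaling, 0.46 after quantile normalization, 2.62 and 1.70 with pseudocounts of 0.01 and 0.1 FPKM, and 0.44 with no filter, the replicate block or a robust variance prior. It ranged between 0.37 and 0.54 with single libraries left out, where the limma adjusted p was 0.0191 to 0.206. The interaction of Myc was 0.38 and 1.17 with these pseudocounts. The cause of these changes was not tested. Read depth is not known, which limits what can be said of genes at low FPKM.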
